A study of Carica papaya with 15 samples.

Results

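The comparison described here sets pulp of papaya fruit before any treatment against pulp of fruit that had been exposed to ethylene for 12 h. Its 6 libraries, 3 of C0h and 3 of T12h, were chosen by their labels from the 15 libraries of the series. C0h was the start group of "Golden" papaya, frozen soon after the fruit reached the laboratory. T12h fruit had spent 12 h in a closed chamber with ethylene at 100 ppm and were frozen once the gas had been vented. C12h, control fruit kept for 12 h without the gas, is given beside the 2 groups. The fruit were of 1 cultivar at the pre-climacteric stage, and they had been sanitized with chlorine on arrival, as the methods say of the fruit in general. Harvests of 3 successive months gave the libraries lettered A, B and C. At least 5 fruit of a harvest, peeled and freed of seeds, went into each pool, so replicates were pools of separate harvests. T12h differed from C0h by the gas, by the closed chamber and its venting, and by 12 h of storage. These cannot be told apart within this comparison, so the values of C12h stand beside the results they touch. The paper describes no chamber or venting for control fruit, so C12h does not separate these from the gas. In such pools, fewer cells of a kind and less transcript per cell cannot be told apart either.

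Papaya is a climacteric fruit, in which a burst of ethylene goes with softening and pigment change. Ethylene binds receptors of the endoplasmic reticulum, which act as brakes on the pathway. Once the gas is bound, the protein EIN2 is released from that brake and transcription factors of the EIN3 and ERF families switch target genes. Ripening pulp takes its walls apart, turns chloroplasts into chromoplasts and produces volatile compounds. The roles named below are those known from Arabidopsis, after whose genes the papaya genes carry their symbols.

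Counts per gene, scaled between libraries by a size factor, are called normalized counts. Reads recovered from the values numbered 9421350 to 12542678 in C0h libraries and 9760246 and 9870417 in T12h A and C. Summed normalized counts were 8942200 to 9593068 in C0h and 10874253 to 11327020 in T12h, while the median over the tested genes was lower in T12h, at 139.2 to 139.9 against 145.8 to 147.6. Differences are given on the log2 scale after adding 1, as T12h minus C0h, with their standard error (SE). They come from limma over 15270 of 20332 genes, those with a mean of at least 5 over the 15 libraries. A gene is said to have risen or fallen where its adjusted p was 0.05 or less, for changes of any size. Of the genes tested, 3658 had a symbol, and gene groups were drawn from these.

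In T12h, 1804 genes (11.8% of those tested) had risen from the C0h level and 1860 genes (12.2%) had fallen. The rises were by more than 2-fold in 1021 genes, by more than 8-fold in 207 and by more than 16-fold in 88, and the falls in 1297, 55 and 3 genes. At a log2 difference above 1.5 in size as well, 634 genes (4.15%) were higher and 716 (4.69%) were lower. The 3 values of each group did not overlap in 3591 of the 3664 called genes, and in 7487 of all genes tested (49.0%). All 3 harvests gave the same sign in 3631 of the called genes, which is no separate support, as the calls rest on the same libraries. Over the same 12 h without ethylene, 0 genes (0%) were called from C0h to C12h. In that comparison limma gave 1070 genes an unadjusted p of 0.05 or less. There, edgeR on 13 libraries called 0 genes and DESeq2 34. Between C12h and T12h, 1791 genes (11.7%) were higher in T12h and 1884 (12.3%) were lower. These groups are called fruit of equal or the same age below, though T12h fruit were also vented before freezing.

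The start libraries were not alike. C0h A was the nearest of the C0h libraries to the T12h level in 1396 of the 1804 genes that rose and in 1430 of the 1860 that fell, and C0h C was the farthest in 1227 and 1213 of them. Over the genes that rose, the median log2 difference from the C0h mean was 0.28 in C0h A, -0.04 in C0h B and -0.22 in C0h C, against 1.04 to 1.21 in T12h. Over those that fell it was -0.28, 0.08 and 0.22 in C0h and -1.34 to -1.20 in T12h. Among control fruit at 12 h, C12h B stood nearest to T12h, with medians of 0.39 and -0.35. These values describe the called genes and were not tested. The total of 3664 called genes became 3953 without C0h A, 1480 without C0h B and 813 without C0h C. It became 2417, 2013 and 1736 without T12h A, B and C. Without both libraries of harvest C and that harvest in the other groups, 0 genes passed in limma, with 3152 at an unadjusted p of 0.05 or less. That run ended each call named below and is not repeated with them. With the harvest as a replicate block the total was 3434.

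**Figure D1:**
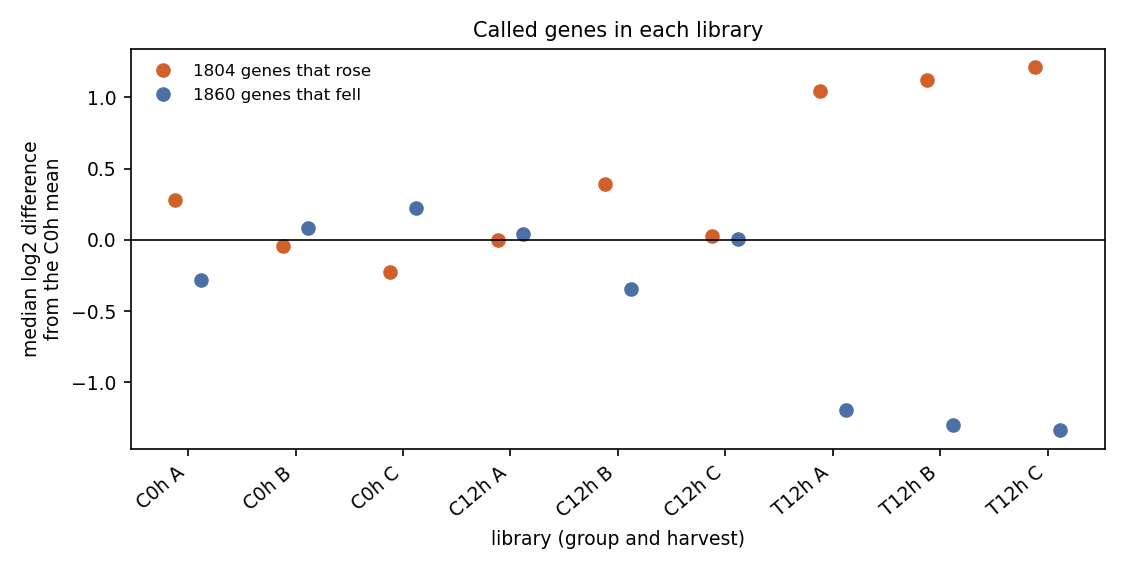
Median log2 difference from the C0h mean (vertical axis) in each of 9 libraries (horizontal axis), over the 1804 genes that rose (orange) and the 1860 that fell (blue) between C0h and T12h. C0h A (0.28 and -0.28) and C12h B (0.39 and -0.35) lie toward the T12h libraries, which lie at 1.04 to 1.21 and at -1.34 to -1.20.

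The genes with a symbol that rose most included enzymes of the wall, transporters and regulators. IRX3 (LOC110815766), a catalytic subunit of the cellulose synthase of secondary walls, was at 489, 92.7 and 19.96 normalized counts in C0h A, B and C and 5977, 5846 and 8696 in T12h A, B and C (log2 difference 6.09, SE 1.56, adjusted p = 0.0162). Its C12h values were 45.6, 656 and 20.3, so the control libraries ranged widely and still lay below T12h. TLP-3 (LOC110813533), a thaumatin-like protein of a family with roles in defence, stood at 2128, 699.5 and 308 in C0h and 26139, 24942 and 24129 in T12h (log2 difference 5.02, SE 1.28, adjusted p = 0.0159). ABCG2 (LOC110809908), a transporter of the half-size ABCG family, was at 1623, 308 and 194 in C0h and 12410, 10658 and 18854 in T12h (log2 difference 4.88, SE 1.06, adjusted p = 0.00872). Both were abundant after ethylene, and in both C0h A was the highest of the start libraries.

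Transporters and signalling proteins followed. OPT1 (LOC110820655), an oligopeptide transporter, stood at 49.6, 29.5 and 20.7 in C0h and 1138, 774 and 1349 in T12h (log2 difference 5.04, SE 1.14, adjusted p = 0.00973). ABCG10 (LOC110808870), another ABCG transporter, was at 2.29, 1.02 and 0 in C0h and 68.0, 35.8 and 93.3 in T12h (log2 difference 5.05, SE 0.73, adjusted p = 0.00350), close to 0 in each C0h library. NEK4 (LOC110814726), a NIMA-related protein kinase, gave 30.5, 12.2 and 9.98 in C0h and 518, 416 and 1033 in T12h (log2 difference 5.19, SE 0.85, adjusted p = 0.00362). HVA22J (LOC110810621), of a family first known for induction by abscisic acid, also rose (log2 difference 5.13, adjusted p = 0.0118). So did ATL4 (LOC110814783), a RING-type ubiquitin ligase, by 4.78 (adjusted p = 0.0169).

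HEI10 (LOC110812481), a RING protein of meiotic recombination, had the largest rise among genes with a symbol, from 14.5, 3.05 and 0 in C0h to 595, 435 and 466 in T12h (log2 difference 6.96, adjusted p = 0.00821). HSP70T-2 (LOC110814125), a truncated relative of the HSP70 chaperones, was at 139.7, 49.9 and 17.8 in C0h and 1809, 2186 and 2271 in T12h (log2 difference 5.34, SE 1.02, adjusted p = 0.00558). SDE3 (LOC110809693), an RNA helicase of gene silencing, stood at 10.7, 3.05 and 3.56 in C0h and 105, 179.9 and 161 in T12h (log2 difference 4.60, SE 0.89, adjusted p = 0.00585). QWRF7 (LOC110820392), of a plant family with a conserved QWRF motif, was at 10.7, 1.02 and 0 in C0h and 63.5, 80.5 and 62.2 in T12h (log2 difference 4.59, SE 1.32, adjusted p = 0.0251). The 12 genes were chosen among those whose lowest T12h value lay above the highest C0h value, so that separation is not a result. Their C12h values lay among or near those of C0h. Of these 12 calls, 7 were missed on dropping C0h C, 4 on dropping C0h B, 2 on dropping T12h A, 2 on dropping T12h C and 1 on dropping T12h B (adjusted p 0.0502 to 0.117).

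The largest falls brought moderately expressed genes down to low levels. ATTPS6 (LOC110823585), of the trehalose-phosphate synthase family, was at 1200, 2162 and 2699 normalized counts in C0h A, B and C and 365, 187 and 102 in T12h A, B and C (log2 difference -3.32, SE 0.67, adjusted p = 0.00685). EOL2 (LOC110823612), a relative of ETO1 that marks ACC synthase, the enzyme of the ethylene precursor, for breakdown, was at 259.6, 240.3 and 249 in C0h and 41.2, 21.9 and 17.8 in T12h (log2 difference -3.25, SE 0.36, adjusted p = 0.00190). Its C0h values lay close together, and each T12h value was well below them. UBP15 (LOC110812548), a ubiquitin-specific protease with a role in organ size, was at 373, 387 and 633 in C0h and 59.0, 64.6 and 49.98 in T12h (log2 difference -2.95, SE 0.53, adjusted p = 0.00464).

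GLK2 (LOC110812009), a transcription factor of chloroplast development that is known for its effect on green tissue in tomato fruit, was at 32.1, 54.0 and 73.4 in C0h and 5.57, 3.98 and 5.55 in T12h (log2 difference -3.10, SE 0.63, adjusted p = 0.00699). SECE1 (LOC110821421), a subunit of the protein translocase of the thylakoid, stood at 40.5, 133 and 151 in C0h and 13.4, 15.9 and 5.55 in T12h (log2 difference -3.02, SE 0.55, adjusted p = 0.00490). CRR3 (LOC110823816), needed for the plastid NDH complex, gave 16.03, 46.8 and 87.0 in C0h and 4.46, 0.994 and 6.66 in T12h (log2 difference -3.25, SE 0.80, adjusted p = 0.0135). That these plastid genes were lower in T12h in each harvest was required by the choice of the genes. PIP2;8 (LOC110818922), a water channel of the plasma membrane, was at 114, 448 and 558 in C0h and 101, 22.9 and 22.2 in T12h (log2 difference -3.00, SE 0.83, adjusted p = 0.0216), with C0h A and T12h A nearly level. SOS5 (LOC110811190), a fasciclin-like arabinogalactan protein of the cell surface, stood at 22.9, 42.8 and 42.1 in C0h and 2.23, 7.95 and 2.22 in T12h (log2 difference -2.97, SE 0.55, adjusted p = 0.00515).

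TUB6 (LOC110824806), a beta-tubulin, was at 43.5, 112 and 159 in C0h and 7.80, 10.9 and 15.5 in T12h (log2 difference -2.95, SE 0.63, adjusted p = 0.00838). PUM12 (LOC110809562), an RNA-binding protein of the Pumilio family, was at 39.7, 77.4 and 119 in C0h and 7.80, 11.9 and 2.22 in T12h (log2 difference -3.34, SE 0.998, adjusted p = 0.0296). HSFA6B (LOC110815920), a heat shock transcription factor, went from 155, 274 and 338 in C0h to 25.6, 12.9 and 9.996 in T12h (log2 difference -3.93, adjusted p = 0.00392). SR1 (LOC110806505), whose symbol is shared by unrelated genes and is left without a role here, fell as well (log2 difference -3.58, adjusted p = 0.00350). These 12 genes, too, were chosen among those without overlap, here with the highest T12h value below the lowest C0h value. From C12h to T12h the test was not passed by TUB6 (log2 difference -1.73, adjusted p = 0.0602). Among the 12 calls, 4 were missed on dropping C0h C, 3 on dropping C0h B, 2 on dropping T12h B, 2 on dropping T12h C and 1 on dropping T12h A (adjusted p 0.0504 to 0.120).

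**Figure D2:**
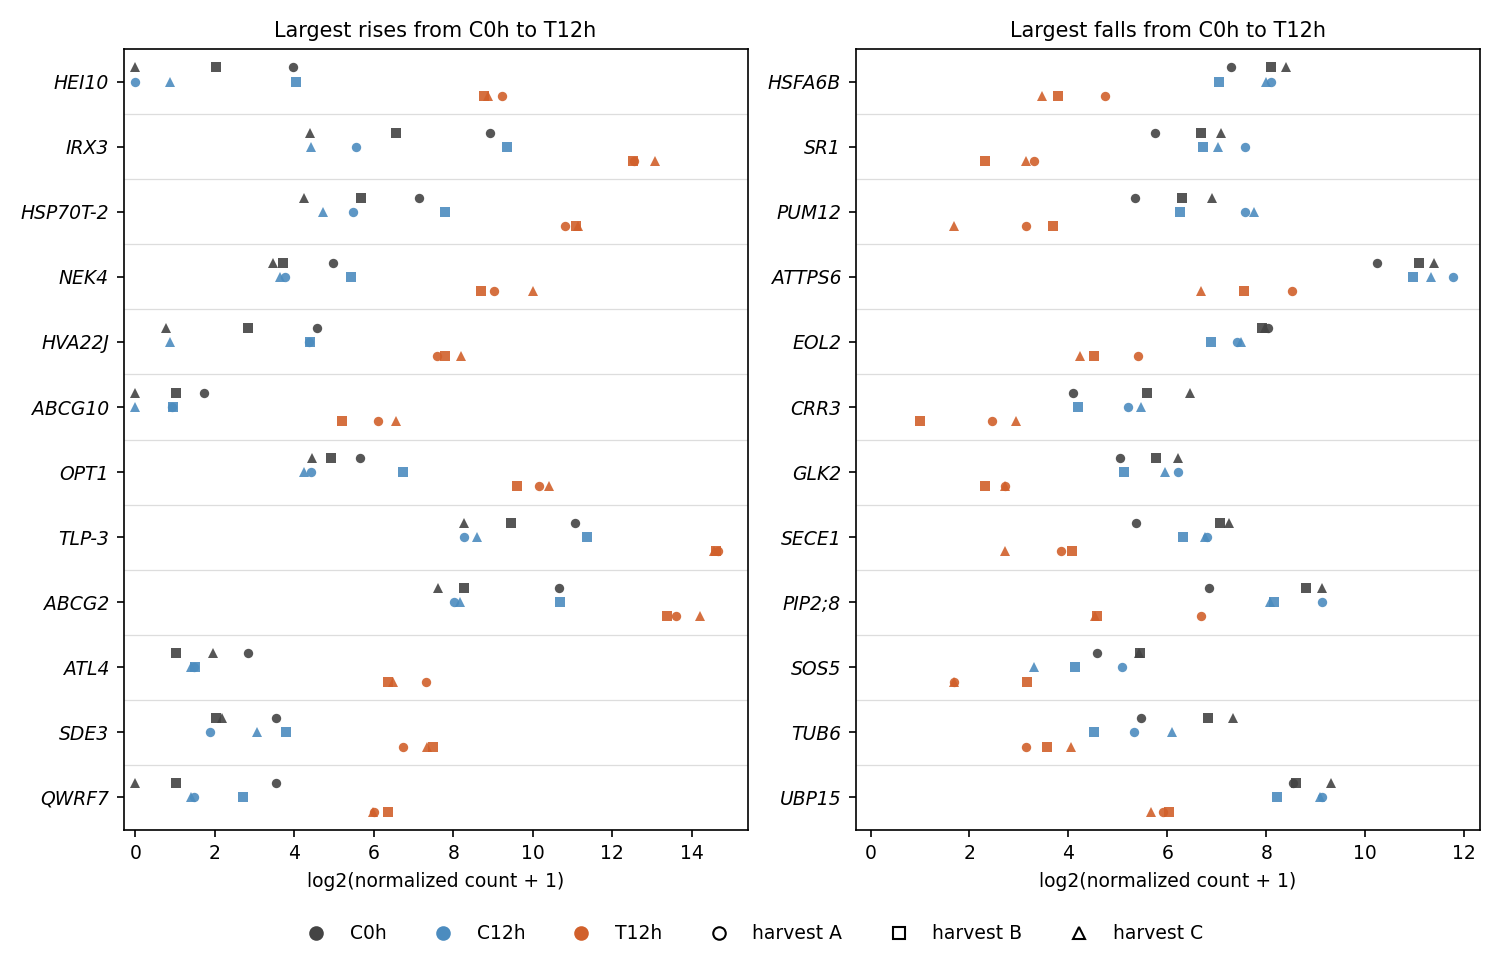
Values of the 12 genes with a symbol that rose most (left) and the 12 that fell most (right) between C0h and T12h, as log2(normalized count + 1) on the horizontal axis. Each point is 1 library, with groups by colour and harvests by shape. The genes were chosen so that the T12h values (orange) lie apart from the C0h values (black). C12h (blue) lies with or near C0h. In IRX3, C12h is at 45.6, 656 and 20.3 normalized counts and T12h at 5977, 5846 and 8696.

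Of the 10 most abundant called genes, 1 had a symbol in the annotation, and the beta-galactosidase LOC110811182, described with the real-time PCR genes, was also among the 10. MAN1 (LOC110814153), an endo-mannanase that cuts the mannan chains of the wall, was at 22752, 32065 and 34741 normalized counts in C0h A, B and C and 17724, 10984 and 10173 in T12h A, B and C (log2 difference -1.23, SE 0.28, adjusted p = 0.0104). The gene LOC110826274, without a symbol, was at 8320, 2123 and 295 in C0h and 70910, 63518 and 81340 in T12h (log2 difference 5.37, SE 1.497, adjusted p = 0.0226). It thus went from a span of more than an order of magnitude among the C0h libraries to similar levels in the 3 T12h libraries. LOC110820622 stood at 4923, 1630 and 1484 in C0h and 27068, 31971 and 45730 in T12h (log2 difference 3.90, SE 0.96, adjusted p = 0.0138), and its C12h values were 715, 2921 and 500.0. The most abundant called gene, LOC110810577, fell, at 84014, 124652 and 132593 in C0h and 50603, 47949 and 41498 in T12h (log2 difference -1.26, SE 0.31, adjusted p = 0.0144). Single libraries bore on the 4 calls, as 4 were missed on dropping C0h C, 3 on dropping C0h B, 3 on dropping T12h C, 1 on dropping T12h A and 1 on dropping T12h B (adjusted p 0.0501 to 0.117).

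In the genes of ethylene synthesis, 2 of 12 tested genes rose and 1 fell (16.7% and 8.33%, against 11.8% and 12.2% of all genes). Their median log2 difference was 0.30 against -0.02 over all genes tested. No ACC oxidase, another enzyme of ethylene synthesis, was among the 12 genes, so the count does not cover it. The paper, at an unadjusted p of 0.05 or less, reports ACC oxidase and ACC synthase genes as mostly upregulated. MTK (LOC110810443), the methylthioribose kinase of the cycle that recovers methionine for ethylene synthesis, was at 2187, 1587 and 1504 normalized counts in C0h A, B and C and 4343, 4723 and 4297 in T12h A, B and C (log2 difference 1.36, SE 0.40, adjusted p = 0.0291). ACS10 (LOC110817493), classed with ACC synthases though its Arabidopsis counterpart acts as an aminotransferase, was at 22.1, 25.5 and 17.8 in C0h and 43.5, 56.7 and 102 in T12h (log2 difference 1.51, SE 0.42, adjusted p = 0.0234). Together with the fall of EOL2 (log2 difference -3.25, adjusted p = 0.00190), these were the 3 calls of the list. SAM-2 (LOC110813193), which makes the precursor S-adenosylmethionine, was at 149691, 130712 and 115109 in C0h and 219911, 192904 and 194090 in T12h and did not pass (adjusted p = 0.282). ETO1 (LOC110809471) and EOL1 (LOC110814727), the relatives of EOL2, did not pass either (log2 differences 0.03 and -0.24, adjusted p = 0.898 and 0.259). For the 3 calls of the group, 2 were missed on dropping C0h B, 2 on dropping C0h C, 2 on dropping T12h B, 2 on dropping T12h C and 1 on dropping T12h A (adjusted p 0.0515 to 0.111).

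Of the 11 tested genes of ethylene perception and signalling, 0 rose and 0 fell in limma, with a median log2 difference of 0.31. The receptor ERS1 (LOC110808109) was at 5763, 2333 and 813 normalized counts in C0h A, B and C and 10149, 11921 and 8069 in T12h A, B and C (log2 difference 2.16, SE 0.78, adjusted p = 0.0568). Its T12h values lay above those of C0h in each harvest, but the C0h libraries spanned a wide range. The receptor ETR1 (LOC110811910) was at 2739, 1740 and 1457 in C0h and 3088, 3036 and 3019 in T12h (adjusted p = 0.0918), and the receptor EIN4 (LOC110807354) at 1710, 1139 and 548 in C0h and 1300, 794 and 714 in T12h (adjusted p = 0.796). CTR1 (LOC110822753), the kinase that relays the receptors' brake, gave a log2 difference of 0.56 (adjusted p = 0.120). EIN2 (LOC110824205), the central positive component, gave -0.02 (adjusted p = 0.943). Against C12h, 11.7% of all genes were higher in T12h and 12.3% lower, and of this list 3 of 11 genes were higher and 0 were lower. These were ERS1, with C12h at 1274, 3613 and 1016 (log2 difference 2.57, SE 0.78, adjusted p = 0.0301), ETR1, with C12h at 1502, 1815 and 1545 (log2 difference 0.92, SE 0.28, adjusted p = 0.0317), and CTR1, with C12h at 538, 832 and 648 (log2 difference 0.78, SE 0.25, adjusted p = 0.0405). From C0h to T12h, EBF1 (LOC110817397), an F-box protein that removes EIN3, had the smallest p of the list, at 2666, 2803 and 2236 in C0h and 2054, 1126 and 1065 in T12h (log2 difference -0.92, SE 0.33, adjusted p = 0.0559).

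Among transcription factors, the NAC family had 4 of 11 tested genes that rose (36.4% against 11.8% of all genes) and 0 that fell. NAC025 (LOC110817727) was at 2060, 1163 and 928 normalized counts in C0h A, B and C and 6132, 6005 and 6809 in T12h A, B and C (log2 difference 2.27, SE 0.62, adjusted p = 0.0212), and NAC100 (LOC110810112) at 844, 775 and 839.8 in C0h and 2013, 1625 and 2172 in T12h (log2 difference 1.23, SE 0.36, adjusted p = 0.0275). In C12h, NAC025 was at 683, 1677 and 576 and NAC100 at 842, 1024 and 904. NAC010 (LOC110807011) and NAC084 (LOC110812963) rose at lower levels (log2 differences 1.74 and 1.62, adjusted p = 0.0307 and 0.0225). Set against C12h, 2 of the 11 NAC genes were higher in T12h (NAC025 and NAC100) and 1 was lower (NAC083 (LOC110810834), log2 difference -1.30, adjusted p = 0.0308), with a median log2 difference of 0.21 against 0.79 from C0h. Of all genes, 11.7% were higher and 12.3% lower in T12h than in C12h. In the MADS-box family, 2 of 10 tested genes rose and 0 fell. AGL14 (LOC110817459) was at 32.8, 36.7 and 25.7 in C0h and 414, 227 and 639.7 in T12h (log2 difference 3.60, SE 0.65, adjusted p = 0.00483), and STK (LOC110822337), a factor of ovule and seed identity, at 596, 212 and 187 in C0h and 1086, 941 and 1181 in T12h (log2 difference 1.89, SE 0.52, adjusted p = 0.0217). In the AP2 and ERF families, 1 of 5 tested genes rose and 0 fell. The gene was TOE3 (LOC110814386), an AP2 factor of flower development, at 763, 451 and 404 in C0h and 1574, 2163 and 3898 in T12h (log2 difference 2.19, SE 0.40, adjusted p = 0.00483). Of the WRKY factors, 2 of 18 tested genes rose and 3 fell (11.1% and 16.7%). WRKY54 (LOC110819375), a factor of senescence and defence, was at 127, 268 and 97.7 in C0h and 39.0, 23.9 and 11.1 in T12h (log2 difference -2.72, SE 0.73, adjusted p = 0.0199), with higher values in C12h (533, 379 and 261). WRKY15 (LOC110814447) rose (log2 difference 1.61, adjusted p = 0.0313). Against control fruit of the same age, C12h, NAC010, NAC084, STK and WRKY15 did not pass (log2 differences 1.39, 1.28, 1.37 and 1.18, adjusted p = 0.0672, 0.0533, 0.0694 and 0.0893). Leaving libraries out ended part of the 9 calls: 7 were missed on dropping C0h C, 6 on dropping C0h B, 6 on dropping T12h C, 5 on dropping T12h A, 2 on dropping T12h B and 1 on dropping C0h A (adjusted p 0.0520 to 0.141).

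**Figure D3:**
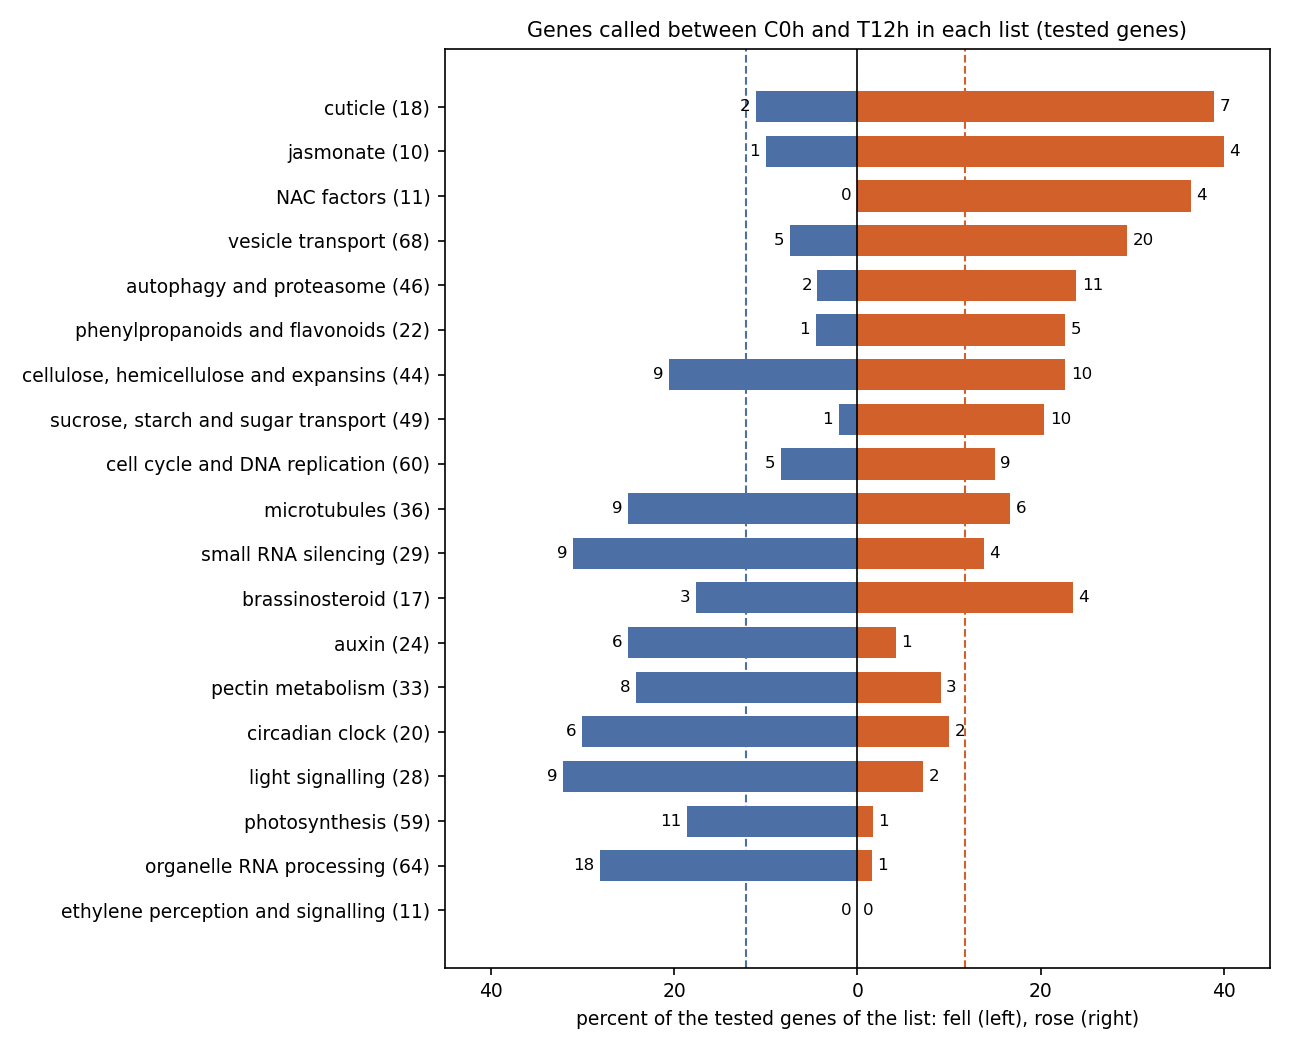
Percent of the tested genes of each list that rose (orange, right) or fell (blue, left) between C0h and T12h, with the number of genes at the end of each bar and the number tested in brackets. Dashed lines mark 11.8% and 12.2%, the shares over all genes tested. NAC and cuticle genes stand past the line on the right (36.4% and 38.9%), and light signalling and organelle RNA processing past the line on the left (32.1% and 28.1%).

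The counts of several lists shrank or grew with single start libraries. For light signalling, the clock, photosynthesis, organelle RNA processing and small RNA silencing, in that order, 9, 6, 11, 18 and 9 genes fell. Without C0h A these counts were 8, 5, 15, 17 and 10, without C0h B 6, 3, 4, 8 and 3 and without C0h C 2, 1, 3, 5 and 4. For NAC factors, sugars and starch, the cuticle, autophagy with the proteasome and vesicle transport, 4, 10, 7, 11 and 20 genes rose. These became 3, 10, 7, 9 and 22 without C0h A, 1, 3, 1, 6 and 7 without C0h B and 1, 4, 0, 2 and 3 without C0h C. C0h C was thus the start library whose absence left the fewest calls in most of these lists.

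Of the 10 photoreceptors tested in the light signalling list 5 fell. They were not a list of their own and were counted with their values known, without FKF1 of the clock list. In plants, phytochromes sense red and far-red light and cryptochromes sense blue light. Of the light signalling list, 2 of 28 tested genes rose and 9 fell, and the median log2 difference was -0.59, against 0.02 between C0h and C12h. The shares were 7.14% and 32.1%, against 11.8% and 12.2% of all genes. The list was drawn by symbol, and its falls include CIP111, whose part in light signalling was not tested. CRY1 (LOC110816653) was at 203, 238 and 273 normalized counts in C0h A, B and C and 108, 82.5 and 98.8 in T12h A, B and C (log2 difference -1.29, SE 0.30, adjusted p = 0.0104), and CRY2 (LOC110815811) at 531, 460.2 and 404 in C0h and 272, 185 and 205 in T12h (log2 difference -1.08, SE 0.24, adjusted p = 0.00940). Among phytochromes, PHYE (LOC110819824) was at 109.9, 129 and 170.4 in C0h and 68.0, 53.7 and 54.4 in T12h (log2 difference -1.19, SE 0.35, adjusted p = 0.0296). PHYD (LOC110821280) fell too, at 18.3, 46.8 and 63.5 in C0h and 7.80, 5.96 and 7.77 in T12h (log2 difference -2.26, SE 0.62, adjusted p = 0.0208), and so did PHYC (LOC110808683), at 35.9, 30.5 and 79.1 in C0h and 15.6, 7.95 and 15.5 in T12h (log2 difference -1.75, SE 0.55, adjusted p = 0.0363). PHYA (LOC110815306) did not pass, at 829, 538 and 729 in C0h and 723, 663 and 809.6 in T12h (adjusted p = 0.749). Of the phytochromes tested, 3 of 4 thus fell, and of the cryptochromes 2 of 3. CRY3 (LOC110826346), the phototropins PHOT1 (LOC110808582) and PHOT2 (LOC110826417) and the ultraviolet receptor UVR8 (LOC110816442) did not pass (log2 differences -0.07, -1.01, -1.06 and -0.20, adjusted p = 0.891, 0.291, 0.167 and 0.494). Against C12h, 4 of 28 genes were higher in T12h and 7 were lower, where 11.7% and 12.3% of all genes were.

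Downstream of the photoreceptors the picture was mixed. PKS4 (LOC110817226), a partner protein of phytochromes and phototropins, was at 47.3, 58.0 and 62.0 normalized counts in C0h A, B and C and 15.6, 11.9 and 17.8 in T12h A, B and C (log2 difference -1.83, SE 0.30, adjusted p = 0.00370). HY5 (LOC110809794), the factor that promotes light responses, rose, at 505, 284 and 130.5 in C0h and 1058, 823 and 855 in T12h (log2 difference 1.77, SE 0.48, adjusted p = 0.0211), and FHY3 (LOC110821569), a factor of far-red light signalling, at 903, 674 and 723 in C0h and 1104, 1192 and 1393 in T12h (log2 difference 0.69, SE 0.15, adjusted p = 0.00896). COP1 (LOC110814723), the ubiquitin ligase that removes HY5, was at 89.3, 59.1 and 74.1 in C0h and 46.8, 35.8 and 63.3 in T12h and did not pass (adjusted p = 0.105). C12h stood at 427, 311 and 306 for CRY1 and at 199, 139.7 and 155 for PHYE, so that neither photoreceptor was lower in control fruit at 12 h, while PHYC was at 32.2, 18.3 and 12.2. Between C12h and T12h the log2 difference was -1.83 for CRY1, -1.11 for CRY2, -2.48 for PHYD, -1.46 for PHYE and -0.59 for PHYC, with PHYC the exception to the calls of that comparison (log2 difference -0.59, SE 0.55, adjusted p = 0.444). In the runs with 1 library fewer, the 8 calls did not all hold, and 6 were missed on dropping C0h C, 4 on dropping C0h B, 4 on dropping T12h C, 3 on dropping T12h B and 2 on dropping T12h A (adjusted p 0.05002 to 0.168).

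Of the genes of the circadian clock, 2 of 20 tested genes rose and 6 fell (10% and 30%, against 11.8% and 12.2% of all genes). At equal age, 3 of the 20 were higher in T12h than in C12h and 3 were lower, where 11.7% and 12.3% of all genes were. GI (LOC110818003), which times flowering and links the clock to light, was at 1297, 998 and 2844 normalized counts in C0h A, B and C and 351, 235 and 555 in T12h A, B and C (log2 difference -2.11, SE 0.44, adjusted p = 0.00791), and PRR5 (LOC110823280), a pseudo-response regulator, at 763, 1048 and 1351 in C0h and 384, 254 and 382 in T12h (log2 difference -1.61, SE 0.38, adjusted p = 0.0109). FKF1 (LOC110825199), a blue-light sensor that works with GI, was at 1338, 1260 and 1929 in C0h and 749, 800.3 and 913 in T12h (log2 difference -0.86, SE 0.26, adjusted p = 0.0308). BOA (LOC110812158), APRR2 (LOC110822555) and RVE8 (LOC110809901) fell as well (log2 differences -1.27, -1.02 and -0.94, adjusted p = 0.0116, 0.0462 and 0.0199). COL2 (LOC110813041), a CONSTANS-like factor, rose, at 59.5, 33.6 and 30.7 in C0h and 365, 152 and 429 in T12h (log2 difference 2.84, SE 0.62, adjusted p = 0.00886), and PRR9 (LOC110806883) rose slightly (log2 difference 0.47, adjusted p = 0.0466). Sampling times of C0h and T12h were at least 12 h apart, as venting followed the exposure, and the values of control fruit are given for that reason. GI was at 509, 495 and 582 in C12h, near its T12h level, with a log2 difference of -1.55 from C0h and -0.56 from C12h to T12h. FKF1 was at 961, 778 and 992 in C12h (-0.71 and -0.15). PRR5 was at 954, 626 and 789 (-0.40 and -1.22) and RVE8 at 611, 463 and 546 (0.05 and -0.99). The GI and FKF1 values of fruit without ethylene thus lay near those of T12h, and those of RVE8 lay near C0h. In fruit of equal age, C12h and T12h, GI, BOA, FKF1 and PRR9 did not pass (log2 differences -0.56, -0.43, -0.15 and 0.34, adjusted p = 0.363, 0.299, 0.700 and 0.125). The 8 calls rested in part on single libraries, and 6 were missed on dropping C0h C, 4 on dropping C0h B, 4 on dropping T12h B, 4 on dropping T12h C, 3 on dropping T12h A and 1 on dropping C0h A (adjusted p 0.0527 to 0.183). With the harvest as a replicate block, APRR2 and PRR9 no longer passed (adjusted p 0.0501 to 0.0595).

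**Figure D4:**
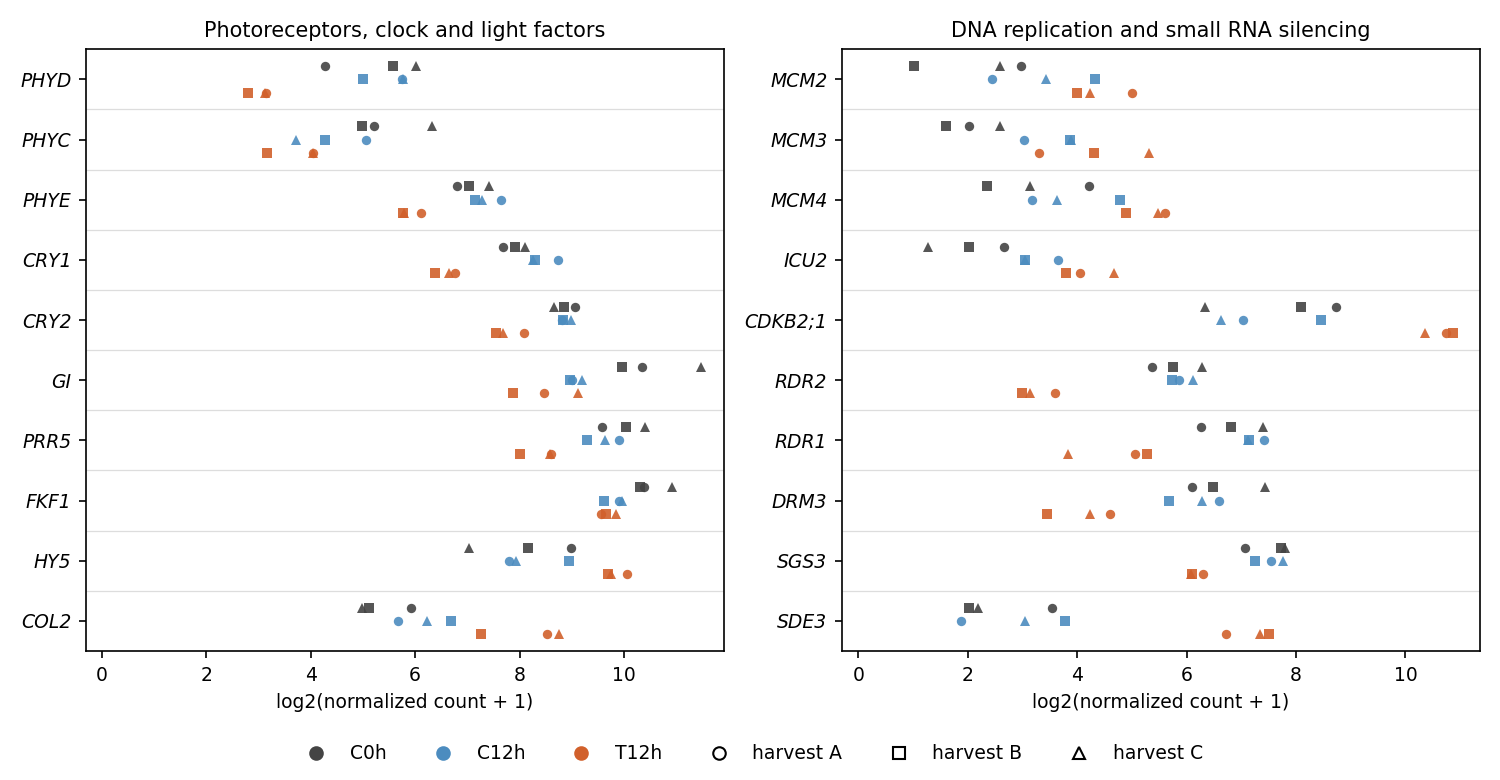
Values of photoreceptor, clock and light genes (left) and of DNA replication and small RNA genes (right) in the C0h, C12h and T12h libraries, as log2(normalized count + 1), with 1 point per library. CRY1 lies lower in T12h (108, 82.5 and 98.8) than in C12h (427, 311 and 306), while GI in T12h (351, 235 and 555) lies close to C12h (509, 495 and 582).

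Auxin response factors bind the promoters of auxin-responsive genes. Of the auxin list, 1 of 24 tested genes rose and 6 fell (4.17% and 25.0%), and each of the 7 calls was a response factor. ARF10 (LOC110813399), a factor that represses its targets, was at 173, 432 and 449.9 normalized counts in C0h A, B and C and 50.1, 73.6 and 63.3 in T12h A, B and C (log2 difference -2.37, SE 0.38, adjusted p = 0.00362). ARF4 (LOC110808551) was at 176, 232 and 177 in C0h and 123, 41.8 and 62.2 in T12h (log2 difference -1.48, SE 0.37, adjusted p = 0.0145), and ARF6 (LOC110819764), an activating factor, at 1200, 1278 and 1124 in C0h and 648, 617 and 488 in T12h (log2 difference -1.05, SE 0.30, adjusted p = 0.0241). ARF17 (LOC110815196) and ARF1 (LOC110807391) fell too (log2 differences -0.996 and -0.78, adjusted p = 0.00887 and 0.0285). ARF8 (LOC110810217) was at 333, 211 and 366 in C0h and 71.3, 73.6 and 154 in T12h (log2 difference -1.65, SE 0.55, adjusted p = 0.0424), but its C12h values, 117, 138 and 47.9, were low as well (log2 difference 0.02 from C12h to T12h). ARF3 (LOC110812628) alone among the called factors rose, at 468, 345 and 302 in C0h and 599, 751 and 669.7 in T12h (log2 difference 0.87, SE 0.25, adjusted p = 0.0238). In the cytokinin list, 2 of 17 tested genes rose and 2 fell (11.8% and 11.8%), near the 11.8% and 12.2% of all genes. The oxidases that degrade cytokinin were higher, CKX7 (LOC110809263) at 2092, 1972 and 1445 in C0h and 3940, 4975 and 4434 in T12h (log2 difference 1.29, SE 0.29, adjusted p = 0.00956) and CKX6 (LOC110808166) at 3.05, 3.05 and 5.70 in C0h and 43.5, 12.9 and 21.1 in T12h (log2 difference 2.32, SE 0.52, adjusted p = 0.00924). ARR11 (LOC110811654), a response regulator that activates cytokinin targets, was lower, at 47.3, 96.7 and 133 in C0h and 11.1, 9.94 and 11.1 in T12h (log2 difference -2.87, SE 0.43, adjusted p = 0.00350). Set against C12h, T12h gave no call for ARF8 and CKX7 (log2 differences 0.02 and 0.61, adjusted p = 0.981 and 0.132). With 1 library fewer, part of the 10 calls did not pass: 6 were missed on dropping C0h C, 5 on dropping C0h B, 5 on dropping T12h B, 4 on dropping T12h C, 1 on dropping C0h A and 1 on dropping T12h A (adjusted p 0.0505 to 0.148). The replicate block for harvest ended the call of ARF8 (adjusted p = 0.0552).

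In the gibberellin list, 1 of 7 tested genes rose and 3 fell (14.3% and 42.9%, against 11.8% and 12.2% of all genes). GA2OX8 (LOC110806753), an oxidase that inactivates gibberellin precursors, rose, at 141, 22.4 and 27.1 normalized counts in C0h A, B and C and 662, 464 and 435 in T12h A, B and C (log2 difference 3.50, SE 0.61, adjusted p = 0.00433). GID1C (LOC110811834), a gibberellin receptor, fell, at 205, 234 and 296 in C0h and 114, 72.6 and 103 in T12h (log2 difference -1.34, SE 0.40, adjusted p = 0.0283), as did RGL1 (LOC110809762), a DELLA protein that represses the response, at 42.8, 108 and 95.5 in C0h and 17.8, 23.9 and 13.3 in T12h (log2 difference -2.03, SE 0.38, adjusted p = 0.00537). SPY (LOC110810540), a glycosyltransferase that modifies DELLA proteins, fell by 1.27 on the log2 scale (adjusted p = 0.0437). The gene for removal of the hormone thus rose, and those of its receptor and of the DELLA repressor fell.

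Brassinosteroids are growth steroids that the receptor kinase BRI1 perceives at the cell surface. Here 4 of 17 tested genes rose and 3 fell (23.5% and 17.6%, against 11.8% and 12.2% of all genes). BRI1 (LOC110812897) itself was at 595, 674 and 662 normalized counts in C0h A, B and C and 159, 114 and 139.9 in T12h A, B and C (log2 difference -2.23, SE 0.29, adjusted p = 0.00258). The synthesis enzymes ROT3 (LOC110822476) and CPD (LOC110819283) fell, at 111, 134 and 140.4 in C0h and 46.8, 35.8 and 13.3 in T12h (log2 difference -2.14, SE 0.40, adjusted p = 0.00547) and at 550.4, 378 and 422 in C0h and 111, 208 and 93.3 in T12h (log2 difference -1.77, SE 0.34, adjusted p = 0.00558). BAS1 (LOC110812645), which inactivates brassinosteroids, rose, at 606, 338 and 336 in C0h and 895, 1378 and 2118 in T12h (log2 difference 1.75, SE 0.44, adjusted p = 0.0154). The reductase DET2 (LOC110814268), of an early step of synthesis, and BAK1 (LOC110806417), the co-receptor of BRI1, rose as well (log2 differences 1.34 and 1.07, adjusted p = 0.0418 and 0.0112), so the synthesis and perception genes were not of 1 direction. Against control fruit of the same age, C12h, SPY and DET2 did not pass (log2 differences -0.88 and 0.96, adjusted p = 0.136 and 0.120). Of these 10 calls, 5 were missed on dropping C0h C, 4 on dropping C0h B, 4 on dropping T12h C, 3 on dropping T12h B, 2 on dropping C0h A and 1 on dropping T12h A (adjusted p 0.0537 to 0.193). When harvest entered as a replicate block, SPY did not pass (adjusted p = 0.0512).

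In the jasmonate list, 4 of 10 tested genes rose and 1 fell (40% and 10%). JAR1 (LOC110810413), which joins jasmonate to isoleucine to make the active hormone, was at 375, 226 and 114 normalized counts in C0h A, B and C and 1288, 876 and 715 in T12h A, B and C (log2 difference 2.12, SE 0.58, adjusted p = 0.0206). JAZ10 (LOC110806605), a repressor that the hormone itself induces, was at 30.5, 15.3 and 25.7 in C0h and 178, 104 and 163 in T12h (log2 difference 2.61, SE 0.52, adjusted p = 0.00662). The receptor COI1 (LOC110819179) and the synthesis enzyme OPR3 (LOC110817698) rose less (log2 differences 0.54 and 1.02, adjusted p = 0.0249 and 0.0463), and TIFY8 (LOC110811333), a repressor of the same protein family, fell (-0.996, adjusted p = 0.00838). In the abscisic acid list, 3 of 21 tested genes rose and 3 fell (14.3% and 14.3%), near the 11.8% and 12.2% of all genes. Of the SnRK2 kinases of that pathway, SNRK2-8 (LOC110816779) rose, at 437, 388 and 262 in C0h and 994, 1610 and 903 in T12h (log2 difference 1.67, SE 0.30, adjusted p = 0.00476), and OST1 (LOC110813670) fell, at 447, 617 and 743 in C0h and 286, 167 and 126 in T12h (log2 difference -1.69, SE 0.32, adjusted p = 0.00550). ABA4 (LOC110826089), which acts in the synthesis of neoxanthin, a precursor of the hormone, fell (-0.79, adjusted p = 0.0482). From C12h to T12h the test was not passed by OPR3 (log2 difference 0.95, adjusted p = 0.0588). Among the 8 calls, 4 were missed on dropping C0h B, 4 on dropping C0h C, 4 on dropping T12h B, 3 on dropping T12h C, 2 on dropping C0h A and 2 on dropping T12h A (adjusted p 0.0511 to 0.160). A replicate block for harvest left ABA4 above the threshold (adjusted p = 0.0625).

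Of the genes of the photosynthetic apparatus, 1 of 59 tested genes rose and 11 fell (1.69% and 18.6%, against 11.8% and 12.2% of all genes). A log2 difference below 0 was found in 46 of the 59, with a median of -0.50 over the list. STN7 (LOC110824009) and STN8 (LOC110811646), kinases that phosphorylate proteins of the thylakoid, were at 501, 644 and 711 normalized counts in C0h A, B and C and 302, 328 and 364 in T12h A, B and C (log2 difference -0.89, SE 0.17, adjusted p = 0.00550) and at 35.1, 47.9 and 54.9 in C0h and 8.91, 7.95 and 3.33 in T12h (log2 difference -2.67, SE 0.57, adjusted p = 0.00843). LHCB3 (LOC110812339), an antenna protein, was at 16.03, 29.5 and 20.7 in C0h and 10.03, 6.96 and 8.88 in T12h (log2 difference -1.23, SE 0.36, adjusted p = 0.0262), PSBY (LOC110809428), a small photosystem II protein, at 279, 804 and 866 in C0h and 262, 156 and 153 in T12h (log2 difference -1.65, SE 0.53, adjusted p = 0.0385), and NDHN (LOC110823587), of the NDH complex, at 9.16, 18.3 and 19.2 in C0h and 5.57, 2.98 and 5.55 in T12h (log2 difference -1.51, SE 0.51, adjusted p = 0.0441). LHCB4.3 (LOC110819151), another antenna protein, was the gene that rose, at 3.82, 0 and 1.43 in C0h and 23.4, 22.9 and 55.5 in T12h (log2 difference 3.82, SE 1.098, adjusted p = 0.0254). GLK2, the chloroplast factor described above, fell with them (log2 difference -3.10, adjusted p = 0.00699). Summed over the 26 green tissue markers found, the level was 2180 to 4223 in C0h and 2091 to 2740 in T12h, so that C0h A, the lowest start library, lay within the T12h range (exact permutation test, two-sided p = 0.300). Of these markers 20 were tested, 1 rose and 3 fell, and 1, PSAH2, was at 0 in the 6 libraries. The part of green tissue in these values was not tested. In fruit of equal age, C12h and T12h, STN7, LHCB3 and PSBY did not pass (log2 differences -0.48, -0.90 and -1.02, adjusted p = 0.0525, 0.0783 and 0.164). Single libraries bore on the 7 calls, as 4 were missed on dropping C0h B, 4 on dropping C0h C, 4 on dropping T12h B, 4 on dropping T12h C and 1 on dropping T12h A (adjusted p 0.0533 to 0.160). With the harvest as a replicate block, NDHN no longer passed (adjusted p = 0.0569).

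Among genes that edit, splice or transcribe the RNA of plastids and mitochondria, 18 of 64 tested fell (28.1% against 12.2% of all genes) and 1 rose (1.56%), and 55 had a log2 difference below 0, with a median log2 difference of -0.58. The median was -0.10 between C0h and C12h and -0.43 between C12h and T12h. DG1 (LOC110822431), needed for early chloroplast development, was at 53.4, 82.5 and 113 normalized counts in C0h A, B and C and 16.7, 14.9 and 24.4 in T12h A, B and C (log2 difference -2.06, SE 0.34, adjusted p = 0.00389). PTAC15 (LOC110823150), of the plastid chromosome, was at 155, 188 and 195 in C0h and 68.0, 80.5 and 66.6 in T12h (log2 difference -1.31, SE 0.28, adjusted p = 0.00826), and GUN1 (LOC110819473), of the signal from plastid to nucleus, at 1047, 765 and 834 in C0h and 525, 337 and 291 in T12h (log2 difference -1.23, SE 0.34, adjusted p = 0.0211). CAF2 (LOC110813165), a plastid splicing factor, was at 58.0, 49.9 and 60.6 in C0h and 24.5, 15.9 and 26.7 in T12h (log2 difference -1.32, SE 0.36, adjusted p = 0.0211), and C12h was as low, at 29.5, 20.1 and 21.1. The RNA processing and editing factors OTP82 (LOC110812735), CRR2 (LOC110812210), MORF9 (LOC110812337) and MORF1 (LOC110814103) were among the other genes that fell (log2 differences -1.06, -1.13, -0.85 and -0.66, adjusted p = 0.0326, 0.0267, 0.00754 and 0.0102). WTF9 (LOC110814659), a splicing factor of mitochondria, rose, at 256, 241 and 164 in C0h and 341, 379 and 445 in T12h (log2 difference 0.83, SE 0.18, adjusted p = 0.00888). The list was drawn up with its values known, so its count is a description. Set against C12h, T12h gave no call for CAF2, GUN1, OTP82 and MORF9 (log2 differences -0.08, -0.86, -0.84 and -0.39, adjusted p = 0.881, 0.0749, 0.0734 and 0.117). For the 9 calls of the group, 6 were missed on dropping C0h C, 4 on dropping T12h B, 3 on dropping C0h B, 3 on dropping T12h C, 2 on dropping T12h A and 1 on dropping C0h A (adjusted p 0.0502 to 0.105).

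In the carotenoid list, 1 of 14 tested genes rose and 3 fell (7.14% and 21.4%, against 11.8% and 12.2% of all genes). LYC (LOC110822614), lycopene cyclase, fell, at 163, 230.1 and 284 normalized counts in C0h A, B and C and 73.5, 82.5 and 74.4 in T12h A, B and C (log2 difference -1.51, SE 0.33, adjusted p = 0.00888), and LUT1 (LOC110822860), a hydroxylase of lutein synthesis, fell too, at 172, 205 and 163 in C0h and 63.5, 86.5 and 71.1 in T12h (log2 difference -1.28, SE 0.27, adjusted p = 0.00779). CRTISO (LOC110806395), the isomerase that makes all-trans lycopene, fell as well, at 74.1, 115 and 141 in C0h and 45.7, 36.8 and 53.3 in T12h (log2 difference -1.23, SE 0.28, adjusted p = 0.0106). PSY (LOC110824636), the entry enzyme, was at 908, 852 and 839.8 in C0h and 847, 927 and 549.8 in T12h, and PDS3 (LOC110807915) and ZDS (LOC110809670), the desaturases, gave log2 differences of 0.17 and -0.13, none of which passed (adjusted p = 0.551, 0.557 and 0.740). NPQ1 (LOC110814926), violaxanthin de-epoxidase, rose (0.81, adjusted p = 0.0422). In control fruit at 12 h, LYC was at 185, 106 and 137, LUT1 at 172, 88.6 and 125 and CRTISO at 83.2, 55.7 and 72.2. Against C12h, 1 of the 14 genes was higher in T12h and 0 were lower, where 11.7% and 12.3% of all genes were.

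Of the isoprenoid precursor genes, 4 of 13 tested genes rose and 1 fell (30.8% and 7.69%, against 11.8% and 12.2% of all genes). Of the mevalonate pathway of the cytosol 3 genes rose, HMGS (LOC110817522) at 10502, 7381 and 6603 normalized counts in C0h A, B and C and 18236, 12827 and 16218 in T12h A, B and C (log2 difference 0.96, SE 0.30, adjusted p = 0.0334), mevalonate kinase MK (LOC110815483) at 389, 329.9 and 265 in C0h and 775, 711 and 731 in T12h (log2 difference 1.19, SE 0.27, adjusted p = 0.00970) and HMG2 (LOC110826423) at 1105, 999.9 and 908 in C0h and 1592, 1690 and 2045 in T12h (log2 difference 0.82, SE 0.28, adjusted p = 0.0488). AACT1 (LOC110817825) and HMG1 (LOC110818015), of the same pathway, did not pass (log2 differences -0.21 and -0.12, adjusted p = 0.572 and 0.763). GPS1 (LOC110819699) rose by 0.46 and GGR (LOC110819081), of geranylgeranyl diphosphate supply in the plastid, fell (-0.78, adjusted p = 0.0464 and 0.0230). HPT1 (LOC110811069), which starts tocopherol synthesis in the plastid and stands in the list of antioxidants, fell, at 3090, 3174 and 3902 in C0h and 1081, 2652 and 874 in T12h (log2 difference -1.31, SE 0.38, adjusted p = 0.0256). Against control fruit of the same age, C12h, LYC, LUT1, CRTISO, GGR and HPT1 did not pass (log2 differences -0.85, -0.75, -0.62, -0.31 and -0.50, adjusted p = 0.0730, 0.0550, 0.119, 0.312 and 0.342). Leaving libraries out ended part of the 10 calls: 9 were missed on dropping C0h C, 6 on dropping C0h B, 6 on dropping T12h C, 5 on dropping T12h A, 3 on dropping T12h B and 2 on dropping C0h A (adjusted p 0.0531 to 0.165). The replicate block for harvest ended the call of GPS1 (adjusted p = 0.0621).

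Of the genes of pectin metabolism, 3 of 33 tested genes rose and 8 fell (9.09% and 24.2%, against 11.8% and 12.2% of all genes). At equal age, 6 of the 33 were higher in T12h than in C12h and 7 were lower, where 11.7% and 12.3% of all genes were. No polygalacturonase, pectate lyase or rhamnogalacturonate lyase, enzymes that cut pectin, was among the 33 genes. Pectin methylesterases strip methyl groups from pectin so that other enzymes can cut it. PME1 (LOC110818404) was at 1056, 1408 and 1475 normalized counts in C0h A, B and C and 396, 385 and 269.9 in T12h A, B and C (log2 difference -1.91, SE 0.31, adjusted p = 0.00362), and PME31 (LOC110820172) at 326, 967 and 1055 in C0h and 146, 218 and 153 in T12h (log2 difference -2.03, SE 0.55, adjusted p = 0.0205). GATL3 (LOC110824171), of the family that builds pectin and xylan chains, was at 105, 144 and 113 in C0h and 30.1, 47.7 and 6.66 in T12h (log2 difference -2.41, SE 0.73, adjusted p = 0.0311), and GAUT12 (LOC110810952), of the same superfamily, fell by 1.09 on the log2 scale (adjusted p = 0.0362). Beta-galactosidases went both ways, BGAL10 (LOC110816435) up, at 1073, 344 and 453 in C0h and 1670, 1345 and 2356 in T12h (log2 difference 1.66, SE 0.49, adjusted p = 0.0287), and BGAL5 (LOC110810818) down, at 619.9, 297 and 654 in C0h and 115, 33.8 and 145 in T12h (log2 difference -2.56, SE 0.49, adjusted p = 0.00558). ARAD1 (LOC110817442), of arabinan synthesis, rose (0.82, adjusted p = 0.0459). In the runs with 1 library fewer, the 7 calls did not all hold, and 5 were missed on dropping C0h B, 5 on dropping C0h C, 5 on dropping T12h C, 3 on dropping T12h A and 2 on dropping T12h B (adjusted p 0.0579 to 0.194).

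Cell wall genes were also chosen for real-time PCR in this work, and of these 12 genes 8 could be paired with a tested gene of the table. The choice had been made on these libraries, so their direction is not independent evidence. The polygalacturonase called PG2 (LOC110813488), an enzyme that cuts pectin chains, was at 0 in each C0h library and at 25.6, 12.9 and 35.5 in T12h. With 3 counts per library taken as the floor of C0h, that was at least 9.90-fold higher (adjusted p = 0.0101). PG3 (LOC110809302) was at 5.34, 0 and 3.56 in C0h and 103, 32.8 and 385 in T12h (log2 difference 5.17, SE 1.16, adjusted p = 0.00953). In C12h it was at 6.26, 26.5 and 9.74, and from C12h to T12h it did not pass (log2 difference 3.10, SE 1.16, adjusted p = 0.0644). PG2 was at 0.894, 5.48 and 0 in C12h. Both were low, and the T12h libraries differed several-fold among themselves. The beta-galactosidase called BGAL1 (LOC110811182) was abundant, at 21654, 9800 and 5554 in C0h and 45646, 51397 and 55620 in T12h (log2 difference 2.26, SE 0.60, adjusted p = 0.0188). Of the methylesterases, the gene called PME1 is the PME1 above, the gene called PME3 is PME31, and PME2 did not pass (log2 difference -1.52, adjusted p = 0.0574). The pectate lyase PL1 and the alpha-galactosidase AGAL3 did not pass either (log2 differences -1.36 and -0.78, adjusted p = 0.136 and 0.179). The 3 calls rested in part on single libraries, and 1 was missed on dropping C0h B, 1 on dropping C0h C, 1 on dropping T12h B and 1 on dropping T12h C (adjusted p 0.0518 to 0.101).

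In the list of cellulose, hemicellulose and expansins, 10 of 44 tested genes rose and 9 fell, both shares above those of all genes (22.7% and 20.5%). Next to IRX3, XTH30 (LOC110806596), which cuts and rejoins xyloglucan, was at 2489, 1146 and 697 normalized counts in C0h A, B and C and 8989, 7728 and 8989 in T12h A, B and C (log2 difference 2.76, SE 0.59, adjusted p = 0.00838). MUR4 (LOC110826064), which makes the arabinose donor for wall sugars, was at 757, 416 and 267 in C0h and 1792, 2167 and 2450 in T12h (log2 difference 2.27, SE 0.41, adjusted p = 0.00465), and GXM3 (LOC110809919), a methyltransferase of xylan, at 5.34, 1.02 and 2.85 in C0h and 15.6, 9.94 and 21.1 in T12h (log2 difference 2.12, SE 0.56, adjusted p = 0.0183). Among those that fell were the mannanases, MAN1 (-1.23), MAN7 (LOC110822316) at 42.8, 44.8 and 56.3 in C0h and 18.9, 11.9 and 16.7 in T12h (log2 difference -1.55, SE 0.43, adjusted p = 0.0213) and MAN6 (LOC110811647) at 3.82, 11.2 and 7.84 in C0h and 3.34, 0 and 0 in T12h (log2 difference -2.30, SE 0.67, adjusted p = 0.0260). Each of the 3 mannanases tested thus fell. TBL35 (LOC110822599) and TBL38 (LOC110822119), of a family of polysaccharide acetyltransferases, were at 10.7, 17.3 and 10.7 in C0h and 3.34, 0.994 and 2.22 in T12h (log2 difference -2.16, SE 0.67, adjusted p = 0.0336) and at 369, 2367 and 2423 in C0h and 229.5, 237 and 192 in T12h (log2 difference -2.55, SE 0.87, adjusted p = 0.0475). Of the arabinogalactan list, 0 of 11 tested genes rose and 2 fell: SOS5, described above, and its relative FLA2 (LOC110808736), at 0.763, 19.3 and 13.5 in C0h and 0, 0.994 and 0 in T12h (log2 difference -2.68, SE 0.86, adjusted p = 0.0385), whose groups overlapped through C0h A. Set against C12h, T12h gave no call for TBL38 and MAN7 (log2 differences -2.25 and -0.96, adjusted p = 0.0714 and 0.109). With 1 library fewer, part of the 10 calls did not pass: 8 were missed on dropping C0h C, 7 on dropping C0h B, 7 on dropping T12h C, 5 on dropping T12h B and 2 on dropping T12h A (adjusted p 0.0511 to 0.184).

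IRX3 is itself a xylem marker. Summed over the 14 such markers found, the level was 1417 to 1625 in C0h and 6955 to 9679 in T12h (exact permutation test, two-sided p = 0.1, the smallest that 3 against 3 can give). Without IRX3 the sum was 1137 to 1397 in C0h and 983 to 1184 in T12h. Of the 14 markers 6 were tested, 1 rose and 2 fell, and MYB83 and IRX9 were at 0 in the 6 libraries. IRX1 and CESA4, which encode the other subunits of the complex that IRX3 belongs to, had at most 16.7 and 1.79 normalized counts in any of the 9 libraries of C0h, C12h and T12h. The part of xylem cells in the rise of IRX3 was not tested.

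**Figure D5:**
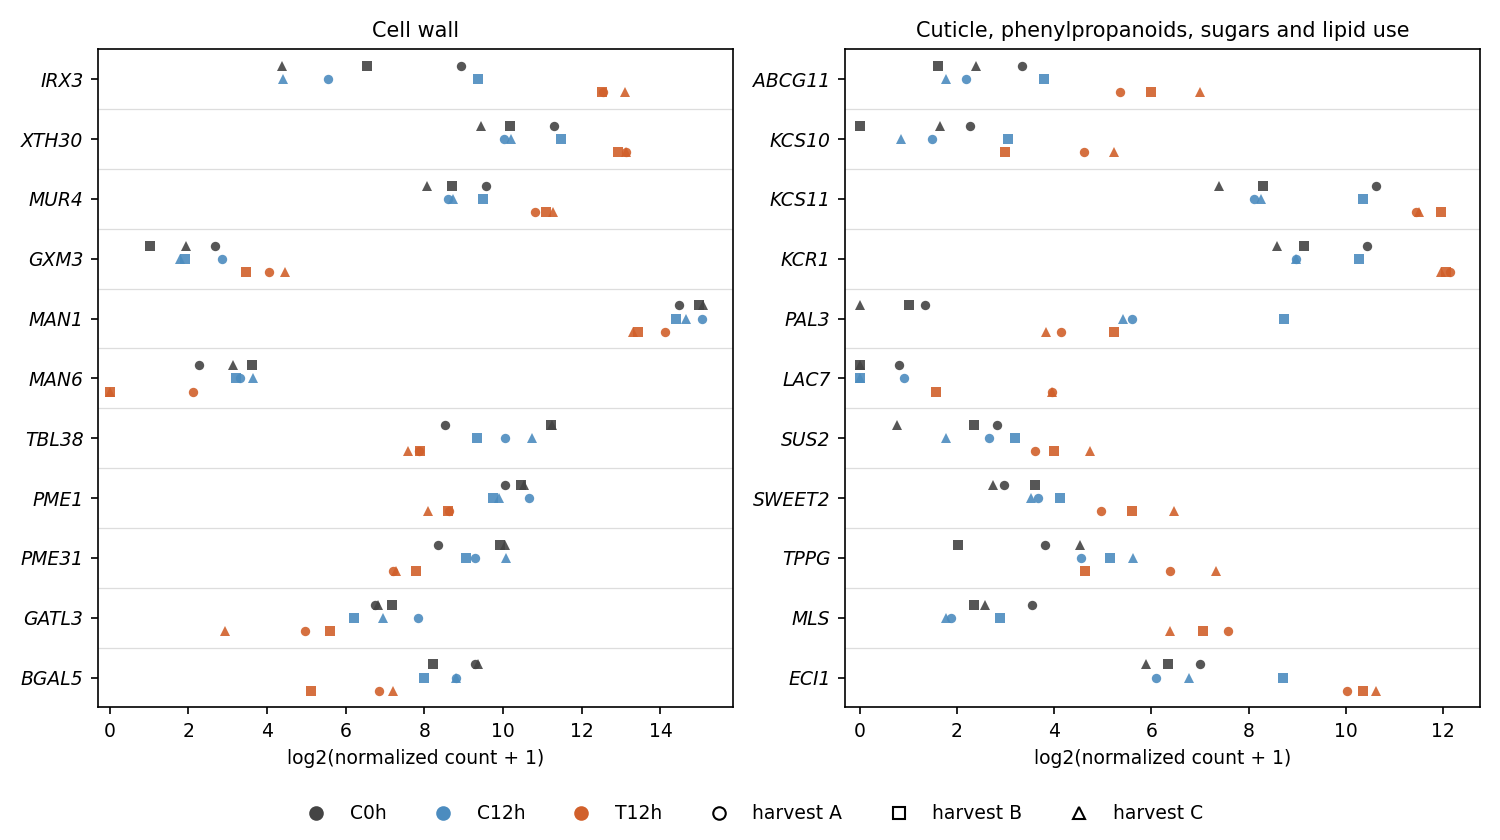
Values of cell wall genes (left) and of genes of the cuticle, phenylpropanoids, sugars and lipid use (right) in the C0h, C12h and T12h libraries, as log2(normalized count + 1), with 1 point per library. IRX3, XTH30 and MUR4 lie higher in T12h and MAN1, TBL38 and PME1 lower. PAL3 is higher in C12h (47.4, 420.0 and 41.4) than in T12h (16.7, 36.8 and 13.3).

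Tubulins and proteins that bind microtubules, which guide the cellulose synthases, moved both ways, and of 36 tested 6 rose and 9 fell (16.7% and 25.0%). The shares over all genes were 11.8% and 12.2%, and the list was drawn up with its values known. CLASP (LOC110821596), which holds microtubules to the cell cortex, was at 321, 467 and 481 normalized counts in C0h A, B and C and 65.7, 54.7 and 45.5 in T12h A, B and C (log2 difference -2.91, SE 0.43, adjusted p = 0.00350). MPB2C (LOC110823472) and the kinesin FRA1 (LOC110818831) fell as well, at 21.4, 38.7 and 34.9 in C0h and 8.91, 4.97 and 9.996 in T12h (log2 difference -1.87, SE 0.44, adjusted p = 0.0116) and at 249.6, 206 and 217 in C0h and 86.9, 79.5 and 67.7 in T12h (log2 difference -1.51, SE 0.38, adjusted p = 0.0155), as did the tubulin TUB6 (-2.95). Another beta-tubulin, TUB7 (LOC110810021), rose, at 296, 209.8 and 132 in C0h and 412, 595 and 528 in T12h (log2 difference 1.32, SE 0.32, adjusted p = 0.0125), with EB1C (LOC110822233), which binds growing ends, at 114, 58.0 and 22.8 in C0h and 287, 639 and 464 in T12h (log2 difference 3.02, SE 0.89, adjusted p = 0.0278) and MAP70-5 (LOC110817734) at 223, 172 and 209.6 in C0h and 516, 561 and 526 in T12h (log2 difference 1.41, SE 0.34, adjusted p = 0.0127). QWRF7, also of this list, is described above (4.59). Against control fruit of the same age, C12h, TUB6, FRA1 and MAP70-5 did not pass (log2 differences -1.73, -0.85 and 0.89, adjusted p = 0.0602, 0.113 and 0.0692). Of these 8 calls, 7 were missed on dropping C0h C, 4 on dropping C0h B, 3 on dropping T12h C, 2 on dropping T12h B and 1 on dropping T12h A (adjusted p 0.0509 to 0.131).

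In sucrose and starch metabolism and sugar transport, 10 of 49 tested genes rose and 1 fell (20.4% and 2.04%). Over all genes the shares were 11.8% and 12.2%. The median log2 difference of the list was 0.06. STP14 (LOC110816261), a hexose transporter, was at 2522, 2035 and 1476 normalized counts in C0h A, B and C and 9345, 12988 and 8755 in T12h A, B and C (log2 difference 2.38, SE 0.61, adjusted p = 0.0163), and SWEET2 (LOC110818297), a sugar carrier of the vacuole, at 6.87, 11.2 and 5.70 in C0h and 30.1, 47.7 and 87.7 in T12h (log2 difference 2.57, SE 0.46, adjusted p = 0.00449). Sucrose synthases, which split sucrose, rose in 2 cases, SUS4 (LOC110812012) at 1319, 888 and 822 in C0h and 3032, 2936 and 1905 in T12h (log2 difference 1.38, SE 0.39, adjusted p = 0.0247) and SUS2 (LOC110815045) at 6.11, 4.07 and 0.713 in C0h and 11.1, 14.9 and 25.5 in T12h (log2 difference 2.13, SE 0.72, adjusted p = 0.0460), while SUS3 (LOC110808116) was at 174, 142 and 246 in C0h and 75.8, 92.5 and 133 in T12h and did not pass (adjusted p = 0.0549). ADG1 (LOC110808715), a subunit of ADP-glucose pyrophosphorylase, which makes the precursor of starch, was at 206, 130.3 and 149 in C0h and 287, 397 and 249.9 in T12h (log2 difference 0.94, SE 0.31, adjusted p = 0.0416), and APS1 (LOC110815868), whose symbol stands both for a subunit of that enzyme and for an ATP sulfurylase, at 537, 292 and 351 in C0h and 1291, 719.8 and 1040 in T12h (log2 difference 1.37, SE 0.40, adjusted p = 0.0272). TPPG (LOC110817605), a trehalose-phosphate phosphatase, was at 12.98, 3.05 and 22.1 in C0h and 82.4, 23.9 and 159.9 in T12h (log2 difference 2.66, SE 0.73, adjusted p = 0.0209). ISA1 (LOC110809821), a starch debranching enzyme, was the gene that fell, at 58.8, 57.0 and 78.4 in C0h and 25.6, 30.8 and 27.8 in T12h (log2 difference -1.17, SE 0.31, adjusted p = 0.0194). For APS1 and TPPG, C12h stood at 1209, 860.1 and 468 and 22.4, 34.7 and 47.9. From C12h to T12h the test was not passed by TPPG, SUS2, APS1 and ISA1 (log2 differences 1.01, 1.56, 0.33 and -0.46, adjusted p = 0.315, 0.122, 0.563 and 0.289). Among the 8 calls, 6 were missed on dropping C0h B, 6 on dropping C0h C, 6 on dropping T12h A, 5 on dropping T12h C and 4 on dropping T12h B (adjusted p 0.0508 to 0.202). When harvest entered as a replicate block, ADG1 did not pass (adjusted p = 0.0603).

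MLS (LOC110823057), malate synthase of the glyoxylate cycle, was at 10.7, 4.07 and 4.99 normalized counts in C0h A, B and C and 189, 133 and 82.2 in T12h A, B and C (log2 difference 4.18, SE 0.94, adjusted p = 0.00956), and its C12h values, 2.68, 6.39 and 2.44, were as low as at the start. ECI1 (LOC110824170), an isomerase that acts in the breakdown of unsaturated fatty acids, was at 127, 80.4 and 58.5 in C0h and 1035, 1304 and 1579 in T12h (log2 difference 3.92, SE 0.60, adjusted p = 0.00350), and ACX2 (LOC110818931), an acyl-CoA oxidase of the same route, at 1608, 1095 and 704 in C0h and 4021, 3812 and 3735 in T12h (log2 difference 1.84, SE 0.51, adjusted p = 0.0218). In the peroxisome list, 5 of 29 tested genes rose and 3 fell (17.2% and 10.3%, against 11.8% and 12.2% of all genes). For glycolysis and respiration, 5 of 43 tested genes rose and 3 fell (11.6% and 6.98%), near or below the shares of all genes. ATCS (LOC110806978), a citrate synthase, rose slightly (0.63, adjusted p = 0.0356). PPC2 (LOC110814687), a phosphoenolpyruvate carboxylase that feeds the formation of malate, fell, at 6296, 8505 and 7299 in C0h and 1272, 3435 and 1919 in T12h (log2 difference -1.85, SE 0.55, adjusted p = 0.0287), as did NDB1 (LOC110816953), an alternative NADPH dehydrogenase of mitochondria, at 92.4, 108 and 149 in C0h and 18.9, 32.8 and 21.1 in T12h (log2 difference -2.23, SE 0.54, adjusted p = 0.0132). Of the genes of nitrogen and amino acids, 8 of 36 tested genes rose and 6 fell (22.2% and 16.7%). AAP3 (LOC110813554), an amino acid permease, was at 2614, 1126 and 1037 in C0h and 13258, 10491 and 14419 in T12h (log2 difference 3.12, SE 0.46, adjusted p = 0.00350), and GAD4 (LOC110823716), which makes GABA from glutamate, at 6.87, 1.02 and 2.14 in C0h and 41.2, 9.94 and 27.8 in T12h (log2 difference 2.69, SE 0.80, adjusted p = 0.0287). In fruit of equal age, C12h and T12h, PPC2 and GAD4 did not pass (log2 differences -1.31 and 1.70, adjusted p = 0.0902 and 0.127). Single libraries bore on the 8 calls, as 5 were missed on dropping C0h C, 4 on dropping C0h B, 4 on dropping T12h C, 3 on dropping T12h A, 1 on dropping C0h A and 1 on dropping T12h B (adjusted p 0.0551 to 0.144). A replicate block for harvest left ATCS above the threshold (adjusted p = 0.0528).

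Of 18 tested genes of cuticle synthesis, 7 rose (38.9% against 11.8% of all genes) and 2 fell (11.1%), in a list drawn up with its values known. KCR1 (LOC110825187), a reductase that lengthens fatty acids for waxes, was at 1387, 560.0 and 384 normalized counts in C0h A, B and C and 4525, 4264 and 3950 in T12h A, B and C (log2 difference 2.66, SE 0.62, adjusted p = 0.0113). The chain-lengthening enzymes KCS11 (LOC110812672) and KCS10 (LOC110812036) were at 1567, 312 and 166 in C0h and 2786, 3988 and 2881 in T12h (log2 difference 2.87, SE 0.96, adjusted p = 0.0451) and at 3.82, 0 and 2.14 in C0h and 23.4, 6.96 and 36.7 in T12h (log2 difference 2.97, SE 1.02, adjusted p = 0.0492). ABCG11 (LOC110812948), which exports wax and cutin, was at 9.16, 2.04 and 4.28 in C0h and 40.1, 62.6 and 127 in T12h (log2 difference 3.67, SE 0.96, adjusted p = 0.0176), and LACS2 (LOC110813779), of cutin synthesis, at 73.3, 59.1 and 43.5 in C0h and 101, 282 and 375 in T12h (log2 difference 1.93, SE 0.55, adjusted p = 0.0242). KCS1 (LOC110808466) and CER10 (LOC110825452) fell (log2 differences -1.56 and -0.65, adjusted p = 0.0117 and 0.0480). The pulp had been peeled, and of 24 peel and cuticle markers found, 16 were tested, 6 rose and 2 fell. Their summed level was 12412 to 13357 in C0h and 14792 to 18168 in T12h (exact permutation test, two-sided p = 0.1). FDH (LOC110816325), the most abundant of them, was at 8424, 9550 and 8374 in C0h and 8258, 10034 and 8741 in T12h (adjusted p = 0.906). Without FDH the sum was 3567 to 4932 in C0h and 6534 to 8134 in T12h. CYP86A1 was at 0 in the 6 libraries, and the epidermal factors MYB16 and PDF1 had at most 0.994 and 1.11 normalized counts. Another epidermal factor, PDF2, was at 155, 133 and 143 in C0h and 187, 218 and 183 in T12h (adjusted p = 0.0543). The markers LCR and CER7 rose (log2 differences 0.78 and 0.82, adjusted p = 0.0209 and 0.0199). Markers were drawn by symbol alone, and whether FDH and LCR stand for cuticle genes here was not tested. The part of peel left on the pulp in these values was not tested. Set against C12h, T12h gave no call for KCS10, KCS11 and CER10 (log2 differences 2.48, 2.73 and -0.14, adjusted p = 0.0879, 0.0534 and 0.673). For the 7 calls of the group, 7 were missed on dropping C0h C, 6 on dropping C0h B, 5 on dropping T12h C, 4 on dropping T12h B, 3 on dropping T12h A and 1 on dropping C0h A (adjusted p 0.0509 to 0.192). With the harvest as a replicate block, KCS10, KCS11 and CER10 no longer passed (adjusted p 0.0553 to 0.0672).

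In the list of phenylpropanoids and flavonoids, 5 of 22 tested genes rose and 1 fell (22.7% and 4.55%, against 11.8% and 12.2% of all genes). UGT89B1 (LOC110823550), a glycosyltransferase of flavonols, was at 3477, 2129 and 1076 normalized counts in C0h A, B and C and 8616, 14930 and 11826 in T12h A, B and C (log2 difference 2.53, SE 0.67, adjusted p = 0.0185), and CYP98A3 (LOC110811301), a hydroxylase on the way to lignin, at 986, 887 and 834 in C0h and 1691, 1352 and 1803 in T12h (log2 difference 0.83, SE 0.20, adjusted p = 0.0125). The peroxidase PRX52 (LOC110819207) was at 4.58, 4.07 and 0.713 in C0h and 26.7, 19.9 and 23.3 in T12h (log2 difference 2.73, SE 0.47, adjusted p = 0.00431), and LAC7 (LOC110814280), a laccase, at 0.763, 0 and 0 in C0h and 14.5, 1.99 and 14.4 in T12h (log2 difference 2.89, SE 0.96, adjusted p = 0.0426). PAL3 (LOC110807260), a phenylalanine ammonia-lyase at the entry of the pathway, was at 1.53, 1.02 and 0 in C0h and 16.7, 36.8 and 13.3 in T12h (log2 difference 3.63, SE 1.102, adjusted p = 0.0315), but its C12h values, 47.4, 420.0 and 41.4, were higher still. C4H (LOC110823746), the next enzyme, was at 469, 913 and 1447 in C0h and 198, 336 and 269.9 in T12h and did not pass (adjusted p = 0.0539). Against control fruit of the same age, C12h, PAL3 did not pass (log2 difference -2.16, adjusted p = 0.157). Leaving libraries out ended part of the 5 calls: 4 were missed on dropping C0h C, 4 on dropping T12h C, 3 on dropping C0h B, 2 on dropping T12h A and 2 on dropping T12h B (adjusted p 0.0508 to 0.135).

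In the list of cell cycle and DNA replication, 9 of 60 tested genes rose and 5 fell (15% and 8.33%). The shares over all genes were 11.8% and 12.2%. At equal age, 6 of the 60 were higher in T12h than in C12h and 7 were lower, near the 11.7% and 12.3% of all genes. The MCM proteins form the helicase that opens DNA for copying, and their genes were at low levels. MCM2 (LOC110809334) was at 6.87, 1.02 and 4.99 normalized counts in C0h A, B and C and 31.2, 14.9 and 17.8 in T12h A, B and C (log2 difference 2.22, SE 0.69, adjusted p = 0.0340), MCM3 (LOC110807603) at 3.05, 2.04 and 4.99 in C0h and 8.91, 18.9 and 38.9 in T12h (log2 difference 2.25, SE 0.60, adjusted p = 0.0193) and MCM4 (LOC110808203) at 17.6, 4.07 and 7.84 in C0h and 47.9, 28.8 and 43.3 in T12h (log2 difference 2.09, SE 0.69, adjusted p = 0.0414). MCM5 (LOC110824093) and MCM6 (LOC110817343) did not pass (log2 differences 0.89 and 1.47, adjusted p = 0.0827 and 0.237). ICU2 (LOC110814366), a subunit of DNA polymerase alpha, was at 5.34, 3.05 and 1.43 in C0h and 15.6, 12.9 and 24.4 in T12h (log2 difference 2.19, SE 0.60, adjusted p = 0.0211), and CDKB2;1 (LOC110820710), a kinase of mitosis, at 424, 271 and 79.8 in C0h and 1709, 1865 and 1305 in T12h (log2 difference 2.93, SE 0.76, adjusted p = 0.0168). AUR1 (LOC110808933), an Aurora kinase, rose too (1.49, adjusted p = 0.0179). ORC2 (LOC110814690), of the origin recognition complex, fell, at 63.4, 92.7 and 82.0 in C0h and 34.5, 17.9 and 15.5 in T12h (log2 difference -1.83, SE 0.34, adjusted p = 0.00533), as did CDKD1;3 (LOC110823421) at 22.1, 44.8 and 64.9 in C0h and 7.80, 3.98 and 4.44 in T12h (log2 difference -2.73, SE 0.54, adjusted p = 0.00643) and RBR1 (LOC110807538), which holds cells before replication (-0.75, adjusted p = 0.0463). For part of these genes the values of control fruit lay above those of C0h, with MCM3 at 7.15, 13.7 and 13.8 and ICU2 at 11.6, 7.30 and 7.31 in C12h. From C12h to T12h the test was not passed by MCM2, MCM3, MCM4, ICU2 and RBR1 (log2 differences 1.01, 0.72, 1.46, 0.92 and -0.71, adjusted p = 0.290, 0.393, 0.127, 0.267 and 0.0539). In the runs with 1 library fewer, the 9 calls did not all hold, and 7 were missed on dropping C0h C, 6 on dropping T12h B, 6 on dropping T12h C, 5 on dropping C0h B and 3 on dropping T12h A (adjusted p 0.0510 to 0.184). The replicate block for harvest ended the call of RBR1 (adjusted p = 0.0559).

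In small RNA silencing, RNA polymerases of the RDR family make double strands that Dicer enzymes cut, and Argonaute proteins carry the products to their targets. Of 29 tested genes, 9 fell (31.0%) and 4 rose (13.8%), in a list drawn up with its values known. Among all genes 12.2% fell and 11.8% rose. RDR1 (LOC110823608) was at 75.6, 111 and 167 normalized counts in C0h A, B and C and 32.3, 37.8 and 13.3 in T12h A, B and C (log2 difference -2.09, SE 0.68, adjusted p = 0.0403), RDR2 (LOC110809349) at 40.5, 52.9 and 77.0 in C0h and 11.1, 6.96 and 7.77 in T12h (log2 difference -2.56, SE 0.50, adjusted p = 0.00618) and RDR6 (LOC110809668) at 108, 106 and 142 in C0h and 51.3, 71.6 and 65.5 in T12h (log2 difference -0.91, SE 0.26, adjusted p = 0.0240). Each of the 3 RDR genes tested thus fell. SGS3 (LOC110808615), the partner of RDR6, was at 133, 209.8 and 220.3 in C0h and 78.0, 67.6 and 66.6 in T12h (log2 difference -1.36, SE 0.40, adjusted p = 0.0285), and DCL1 (LOC110814157), the Dicer of microRNAs, at 251, 241 and 244 in C0h and 130.4, 119 and 173 in T12h (log2 difference -0.81, SE 0.22, adjusted p = 0.0215). AGO10 (LOC110815850) fell, at 343, 465 and 351 in C0h and 129, 129 and 110.0 in T12h (log2 difference -1.64, SE 0.39, adjusted p = 0.0117), while AGO1 (LOC110809633) was at 2437, 1526 and 2168 in C0h and 1539, 1563 and 2685 in T12h and did not pass (adjusted p = 0.794). DRM3 (LOC110808331), of RNA-directed DNA methylation, was at 67.2, 88.6 and 171 in C0h and 23.4, 9.94 and 17.8 in T12h (log2 difference -2.57, SE 0.48, adjusted p = 0.00528). Against this direction, SDE3 (4.60), CMT1 (LOC110817877), a chromomethylase (3.56), AGO6 (LOC110819742) (1.07) and HEN1 (LOC110807609), which protects small RNA ends (1.02), rose (adjusted p = 0.00585, 0.0245, 0.0481 and 0.0264). In fruit of equal age, C12h and T12h, DCL1 and AGO6 did not pass (log2 differences -0.64 and 0.66, adjusted p = 0.0510 and 0.195). The 11 calls rested in part on single libraries, and 8 were missed on dropping C0h B, 7 on dropping C0h C, 6 on dropping T12h C, 5 on dropping T12h B, 4 on dropping T12h A and 1 on dropping C0h A (adjusted p 0.0509 to 0.191). When harvest entered as a replicate block, RDR1 and AGO6 did not pass (adjusted p 0.0562 to 0.0672).

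Of the autophagy and proteasome list, 11 of 46 tested genes rose and 2 fell (23.9% and 4.35%, against 11.8% and 12.2% of all genes). Set against C12h, 5 of 46 genes were higher in T12h and 4 were lower, where 11.7% and 12.3% of all genes were. APG10 (LOC110814400), of the conjugation of autophagy proteins, was at 198, 188 and 178 normalized counts in C0h A, B and C and 433, 491 and 398 in T12h A, B and C (log2 difference 1.22, SE 0.16, adjusted p = 0.00258), and ATG13 (LOC110823292), of the complex that starts autophagy, at 1180, 731 and 602 in C0h and 1364, 1695 and 1669 in T12h (log2 difference 0.96, SE 0.31, adjusted p = 0.0390). RPN13 (LOC110809798), a ubiquitin receptor of the proteasome, and the ubiquitin-conjugating enzyme UBC6 (LOC110811786) rose as well (log2 differences 0.98 and 1.63, adjusted p = 0.0125 and 0.0127). Of the vesicle transport list, 20 of 68 tested genes rose and 5 fell (29.4% and 7.35%), and 52 of the 68 had a log2 difference above 0. There, 25 of 68 genes were higher in T12h and 4 were lower when set against C12h, beside the same 11.7% and 12.3% of all genes. RABA5A (LOC110817917), a small GTPase of the secretory route, was at 55.7, 50.9 and 40.6 in C0h and 141, 196 and 205 in T12h (log2 difference 1.85, SE 0.31, adjusted p = 0.00385), RABA1I (LOC110821928) at 259, 230.1 and 141 in C0h and 529, 583 and 717 in T12h (log2 difference 1.57, SE 0.50, adjusted p = 0.0386) and SCAMP3 (LOC110816945), a carrier membrane protein, at 1416, 903 and 797 in C0h and 2786, 3196 and 3371 in T12h (log2 difference 1.63, SE 0.39, adjusted p = 0.0127). Set against C12h, T12h gave no call for RPN13 (log2 difference 0.65, adjusted p = 0.0564). With 1 library fewer, part of the 7 calls did not pass: 5 were missed on dropping C0h C, 2 on dropping C0h B, 2 on dropping T12h A, 2 on dropping T12h B and 2 on dropping T12h C (adjusted p 0.0592 to 0.170).

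Of 13 seed markers found, 7 were tested, 3 rose and 1 fell, with a summed level of 890 to 1467 in C0h and 2018 to 2487 in T12h (exact permutation test, two-sided p = 0.1), most of it STK and RAB18. ABI3 and EM1 were at 0 in the 6 libraries. Of 8 phloem markers 4 were tested and 0 were called in limma, with sums of 231.7 to 249.6 in C0h and 313 to 337 in T12h. Without FTIP1, the most abundant of them, the sums were 127 to 187 in C0h and 118 to 137 in T12h. The part of such tissues in the results was not tested.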

How the data were processed

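Pulp RNA of 15 libraries, 5 groups of 3, was sequenced by the authors from stranded mRNA libraries. Per the labels and the processing notes of the submitters, reads were cleaned with SeqyClean 1.10.09, checked with FastQC 0.11.8, mapped by STAR 2.6.0a on Papaya1.0, and gene counts were scaled with DESeq2 1.20.1. The deposited signal is a count divided by a size factor per library. Values were whole multiples of 1 step per library (tolerance 0.001, 100.0% of values), and reads were taken as recovered for 13 libraries. T12h B met this check too, with a step of 0.994, but its values were not taken as recovered reads. Its absence from the count tests was thus a choice. The sequencing depth of T12h B was not taken from its values, and only its summed normalized counts were used. Depth limits genes of few counts.

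Genes with a mean of at least 5 were tested with limma 3.58.1 (R 4.3.3), with its trend option, on log2(value + 1) in 1 fit of the 5 groups, with Benjamini-Hochberg adjustment over 15270 genes. A log2 difference understates changes of low genes. Single sums were compared with an exact permutation test (scipy 1.17.1), and the figures were drawn with matplotlib 3.10.9. Scripts were tested on simulated data. Alternatives were TMM and quantile scaling, pseudocounts of 0.5 and 5, other filters, library weights, a fit of 2 groups, a harvest block, leaving out libraries, and count tests by edgeR 4.0.16 or by DESeq2 1.42.0 where reads had been recovered (13 libraries). The letters A, B and C stand for harvests in the methods of the study. Deviations from the group means correlated between C0h and T12h at r = -0.05, 0.21 and 0.16 for A, B and C. Replicates differed beyond counting noise (chi-square per degree of freedom 15.1 to 59.2).

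Symbols came from a RefSeq table of another assembly (ASM5485532v1), used for names only, in which 17406 identifiers were found, and coordinates and promoters were not used here. The 41 gene lists, drawn by symbol, the 4 lists added later (organelle RNA processing, small RNA silencing, microtubules and cuticle) and the comparison itself were chosen with earlier results of these data known. Lists are described by counts, with no test. The named genes were the 12 largest rises and 12 largest falls among genes with a symbol, a log2 difference above 1.5 in size, the same sign in 3 harvests and no overlap. To these came the 10 most abundant called genes, up to 3 called genes per direction of each list with the gene of smallest p where none was called, and the genes of the study's real-time PCR. Of these a part is named, and further members were named after their values were seen.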

Additional observations from a re-analysis of the deposited data

How the results depend on the processing

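Between C0h and T12h the 3664 called genes became 7007 with library quality weights (whose fit stopped before its tolerance), 1910 with edgeR and 2031 with limma on 13 libraries, both without T12h B. Leaving out libraries gave 0 (without harvest C) to 5071 (without C24h B). Above a log2 difference of 1.5 in size the 1350 genes became 842 at a mean of at least 50, where fewer genes were tested, and 0 to 1713 with libraries left out. Between C0h and C12h the count of 0 became 77 with weights, 34 with DESeq2, and 0 to 1 with libraries left out. Between C12h and T12h the 3675 genes became 5678 with only those groups in the fit, 6762 with weights, 1578 with edgeR, 1878 with limma on 13 libraries, and 0 to 5180 with libraries left out. The cause of these moves was not tested beyond the fewer samples or genes in each run. With the harvest as a replicate block 3434 genes were called between C0h and T12h, and 19 of 212 called genes looked at singly no longer passed. Those named above are given there, and the block ended none of the other calls among them.

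Of the 212 genes none changed direction in any run, which is no separate support. Each already had the same sign in the 3 harvests, and the runs reuse the same libraries. Calls were lost for 5 under TMM scaling, 28 under quantile normalization, 2 and 5 with pseudocounts of 0.5 and 5, 22 without a filter on low values, 6 in the fit of 2 groups, 88 with edgeR and 24 with DESeq2, and a mean of at least 50 left 51 without a value. Without C0h C 146 were lost, without C0h B 116 and without C0h A 14. Without T12h A, B and C 64, 82 and 103 were lost. Each was lost without harvest C. With 3 pools a group and 2 after leaving one out, a lost call does not show that a gene is level.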

Other observations

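Several other gene groups were looked at. In the heat shock and chaperone list, 5 of 38 tested genes rose and 4 fell (13.2% and 10.5%), near the 11.8% and 12.2% of all genes. Next to HSFA6B (-3.93), the heat shock factors HSFA3 (LOC110822761) and AT-HSFA5 (LOC110807949) fell (log2 differences -1.45 and -1.12, adjusted p = 0.00490 and 0.0424 in limma), and HSF3 (LOC110815970) and HSFB3 (LOC110806354) rose (1.08 and 1.15, adjusted p = 0.00515 and 0.00902). In the list of salicylate and defence, 8 of 31 tested genes rose and 2 fell (25.8% and 6.45%). PUB29 (LOC110816075), a ubiquitin ligase, was at 286, 153 and 126 normalized counts in C0h A, B and C and 729, 1120 and 913 in T12h A, B and C (log2 difference 2.35, SE 0.51, adjusted p = 0.00838), and NPR3 (LOC110808749), a receptor of salicylate, at 396, 337 and 451 in C0h and 683, 651 and 684 in T12h (log2 difference 0.78, SE 0.19, adjusted p = 0.0126). ACD5 (LOC110820388), a ceramide kinase that restrains cell death, was at 424, 771 and 905 in C0h and 169, 131 and 138 in T12h (log2 difference -2.19, SE 0.44, adjusted p = 0.00651). Of the MAP kinase and calcium list, 5 of 47 tested genes rose and 1 fell (10.6% and 2.13%). Those that rose included the calcium-dependent kinases CPK29 (LOC110818056) and CPK33 (LOC110820857) (1.49 and 1.15, adjusted p = 0.00883 and 0.0138).

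In the list of DNA methylation and chromatin, 10 of 83 tested genes rose and 16 fell (12.0% and 19.3%). Part of its members are shared with the silencing genes above. The histone demethylases ELF6 (LOC110814581) and REF6 (LOC110822963), which remove a repressive mark, were at 335, 309 and 348 normalized counts in C0h A, B and C and 169, 139 and 124 in T12h A, B and C (log2 difference -1.20, SE 0.38, adjusted p = 0.0349) and at 84.0, 96.7 and 80.6 in C0h and 50.1, 37.8 and 35.5 in T12h (log2 difference -1.07, SE 0.26, adjusted p = 0.0118). CLF (LOC110814340), which sets the mark they remove, was at 240.5, 148 and 144 in C0h and 326, 450.3 and 449.8 in T12h (log2 difference 1.23, SE 0.27, adjusted p = 0.00926). BRM (LOC110820911), a chromatin remodelling ATPase, fell (-0.80, adjusted p = 0.0175). Of the proteases, 2 of 39 tested genes rose and 6 fell (5.13% and 15.4%). FTSH11 (LOC110823230), a protease of plastids, was at 215, 243 and 278 in C0h and 85.8, 76.5 and 118 in T12h (log2 difference -1.40, SE 0.22, adjusted p = 0.00350). In the list of fatty acids and lipids, 6 of 43 tested genes rose and 4 fell (14.0% and 9.30%). The acyltransferases LPAT4 (LOC110813535) and LPAT5 (LOC110813736) differed in direction (2.93 and -1.73, adjusted p = 0.00350 and 0.00926). SQD1 (LOC110822050) and MGD1 (LOC110808254), of the lipids of the thylakoid, fell (-1.24 and -0.68, adjusted p = 0.0307 and 0.0172), and the desaturases FAD2 (LOC110811677) and FAD6 (LOC110815673) rose (0.96 and 1.32, adjusted p = 0.0413 and 0.0193). Among genes for volatiles, the terpene synthase TPS04 (LOC110817861) rose, at 3545, 1501 and 3041 in C0h and 12526, 12775 and 20992 in T12h (log2 difference 2.57, SE 0.79, adjusted p = 0.0327), the 1 call of 7 tested. Calls in the remaining lists were few. Over all genes tested, 11.8% rose and 12.2% fell. In DNA repair and meiosis 5 of 54 tested genes rose and 3 fell, in chlorophyll synthesis and breakdown 2 of 21 tested genes rose and 0 fell, and in antioxidants 2 of 33 tested genes rose and 1 fell. For aquaporins and pumps 1 of 24 tested genes rose and 2 fell, for MYB factors 1 of 10 tested genes rose and 0 fell, and for translation 1 of 22 tested genes rose and 0 fell. These genes were named after their values were seen. Against control fruit of the same age, C12h, HSF3, NPR3, CPK33, ELF6, BRM, SQD1 and MGD1 did not pass (log2 differences 0.55, 0.16, 0.76, -1.03, -0.60, -0.69 and -0.39, adjusted p = 0.0580, 0.535, 0.0646, 0.0603, 0.0525, 0.186 and 0.120). Of these 21 calls, 12 were missed on dropping C0h C, 10 on dropping C0h B, 7 on dropping T12h B, 6 on dropping T12h A, 5 on dropping T12h C and 1 on dropping C0h A (adjusted p 0.0502 to 0.164). A replicate block for harvest left AT-HSFA5 and FAD2 above the threshold (adjusted p 0.0502 to 0.0536).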
